A study of Sus scrofa with 6 samples.

Results

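The genes described here encode the enzymes that remove superoxide and peroxides and keep thiols reduced, together with the enzymes that make and use glutathione. They were chosen by gene symbol alone: superoxide dismutases (SOD), catalase, glutathione peroxidases (GPX), peroxiredoxins (PRDX), thioredoxins with their reductases and relatives (TXN), glutaredoxins (GLRX), methionine sulfoxide reductases (MSR), glutathione transferases (GST and MGST), and the genes of glutathione synthesis and reduction. The choice gave 49 genes with 76 probe sets, out of 6765 genes named by a single symbol and 23999 probe sets tested, and each gene was read at its probe set with the highest mean log2 signal. No probe set carried NFE2L2, KEAP1, SRXN1, GSTP1 or MGST2 as its single symbol, and these genes were not analysed here.

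RNA of the left ventricular (LV) free wall of 6 Large White piglets was measured on 6 Affymetrix arrays of porcine genes. The 3 Dox-injected piglets were given doxorubicin (Dox), a cardiotoxic anthracycline used against cancer, intravenously at 2.0 mg/kg in 1 dose. The 3 PBS-injected piglets were given phosphate-buffered saline and served as controls. Per the labels the piglets were 8 days old at injection and 28 days old when the hearts were taken, 3 weeks after it. The study's methods give an earlier injection, a later harvest and a range of doses that ends at this one. Each array holds 1 animal, and the comparison is of growing hearts weeks after 1 exposure, not of the acute response to the drug. The values are MAS5 signals, a linear brightness per probe set that was scaled to a common mean on each array, and signals of different probe sets cannot be set against each other as amounts of RNA.

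The 6 arrays had median signals between 13.5 and 17.8. Dox 3 correlated least with the other arrays (mean r of log2 signals 0.901, against 0.931 to 0.945 for the other 5) and had a signal of 141.4 for 5S ribosomal RNA, against 6.5 to 8.3 elsewhere. Dox 1 had the lowest ratio of the 5′ to the 3′ probe set of GAPDH, a measure of how complete the labelled RNA was, at 0.341, against 0.594 for PBS 1 and 0.751 to 0.847 for the other 4 arrays. The same ratio of actin was 0.166 on Dox 1, 0.252 on Dox 2 and 0.454 on Dox 3, against 0.380 to 0.510 on the PBS arrays. The heart muscle label was borne out by 9 of 10 cardiomyocyte markers with a probe set, all above background (the Tag range, up to the highest signal of synthetic sequences with no counterpart in the pig), whose summed signal was 51102 to 66542 in Dox hearts and 42461 to 50910 in PBS hearts. Summed signals of 5 of 7 fibroblast and matrix markers were 874.4 to 2148 in Dox hearts and 2330 to 3187 in PBS hearts, those of all 6 endothelial markers 1145 to 1278 in Dox hearts and 1330 to 2003 in PBS hearts, and those of all 3 neutrophil markers 69.8 to 802.7 in Dox hearts and 12.3 to 31.1 in PBS hearts. The 3 markers of hepatocytes, read for carry-over, summed to 246.0 to 298.2 in Dox hearts and 303.2 to 370.6 in PBS hearts, a sum carried by APOA1 (log2 difference of Dox minus PBS -0.50), while ALB ran the other way (1.01) and TTR was within background on all arrays. The sums of these 5 lists did not overlap between the groups, and those of smooth muscle, macrophage, red cell and adipocyte markers did. Each sum leans on its brightest probe sets, among them DCN (fibroblast and matrix), PECAM1 and CDH5 (endothelial) and S100A9 (neutrophil). Marker by marker, the groups did not overlap for 5 of 9 cardiomyocyte and 1 of 6 endothelial markers. They did not overlap for 3 of 5 fibroblast and matrix, 3 of 3 neutrophil and 1 of 3 hepatocyte markers, against 16.3% of all probe sets. RYR2 (-0.29) ran against the cardiomyocyte list and VWF (0.15) against the endothelial list. No marker of the first 4 lists was at 0 on any array, and of the neutrophil markers S100A12 was within background on 4 of 6. Their part in the results below was not tested, and in bulk tissue fewer cells of a type cannot be told apart from less RNA per cell.

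Superoxide, which leaks from mitochondria and is also made when doxorubicin is reduced and reoxidized, is turned into hydrogen peroxide by superoxide dismutases. Catalase, glutathione peroxidases and peroxiredoxins then break hydrogen peroxide and lipid peroxides down. Glutathione peroxidases draw their electrons from glutathione and most peroxiredoxins from thioredoxin, and both are restored with NADPH by glutathione reductase and the thioredoxin reductases. Heart muscle is known for a modest peroxide-removing capacity beside liver, and for its dense mitochondria.

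No member passed the study's threshold, which asks for a 2-fold difference and an adjusted p no higher than 0.05. By limma, 0 of 49 members and 0.0% of all probe sets passed, and the smallest adjusted p of any member was 0.521. At an unadjusted limma p of at most 0.05 stood 7 members (14.3%), against 9.54% of all probe sets. Of these, 3 (6.12%) were higher in Dox hearts, against 3.62% of all probe sets, and 4 (8.16%) were lower, against 5.92%. The higher ones were GPX3, GPX4 and PRDX5, and the lower ones GLRX, GLRX2, MGST1 and TXNDC12. Among all named genes at 1 probe set each these shares were 4.92% and 6.61%, so that the members' shares lay near the background in both directions. After quantile normalization the shares over all probe sets were 4.45% higher and 4.53% lower in Dox hearts.

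The 3 Dox arrays and the 3 PBS arrays did not overlap for 10 members (20.4%), against 16.3% of all probe sets. Among all named genes at 1 probe set each the share was 19.4%, near that of the members. The Dox arrays lay wholly above the PBS arrays for 4 members (8.16%), against 6.19% of all probe sets and 9.06% of named genes. They lay wholly below the PBS arrays for 6 members (12.2%), against 10.1% and 10.4%. GPX4, PRDX5, TXN and TXNDC17 were the higher ones, and GLRX, GLRX2, MGST1, TXN2, TXNDC9 and TXNDC12 the lower ones. For each of these 10 the exact two-sided permutation p was 0.1, the smallest that 3 against 3 arrays can give. The log2 difference of Dox minus PBS was above 0 in 20 members and below 0 in 29, with a median of -0.083, against -0.100 over all probe sets. Over the 45 members above background, 17 were above 0 and 28 below, with a median of -0.088, and in 20 the geometric means of the groups were within 1.2-fold of each other. The plot of differences by class shows intervals that cross 0 for 38 of the 45 members above background.

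**Figure D1:**
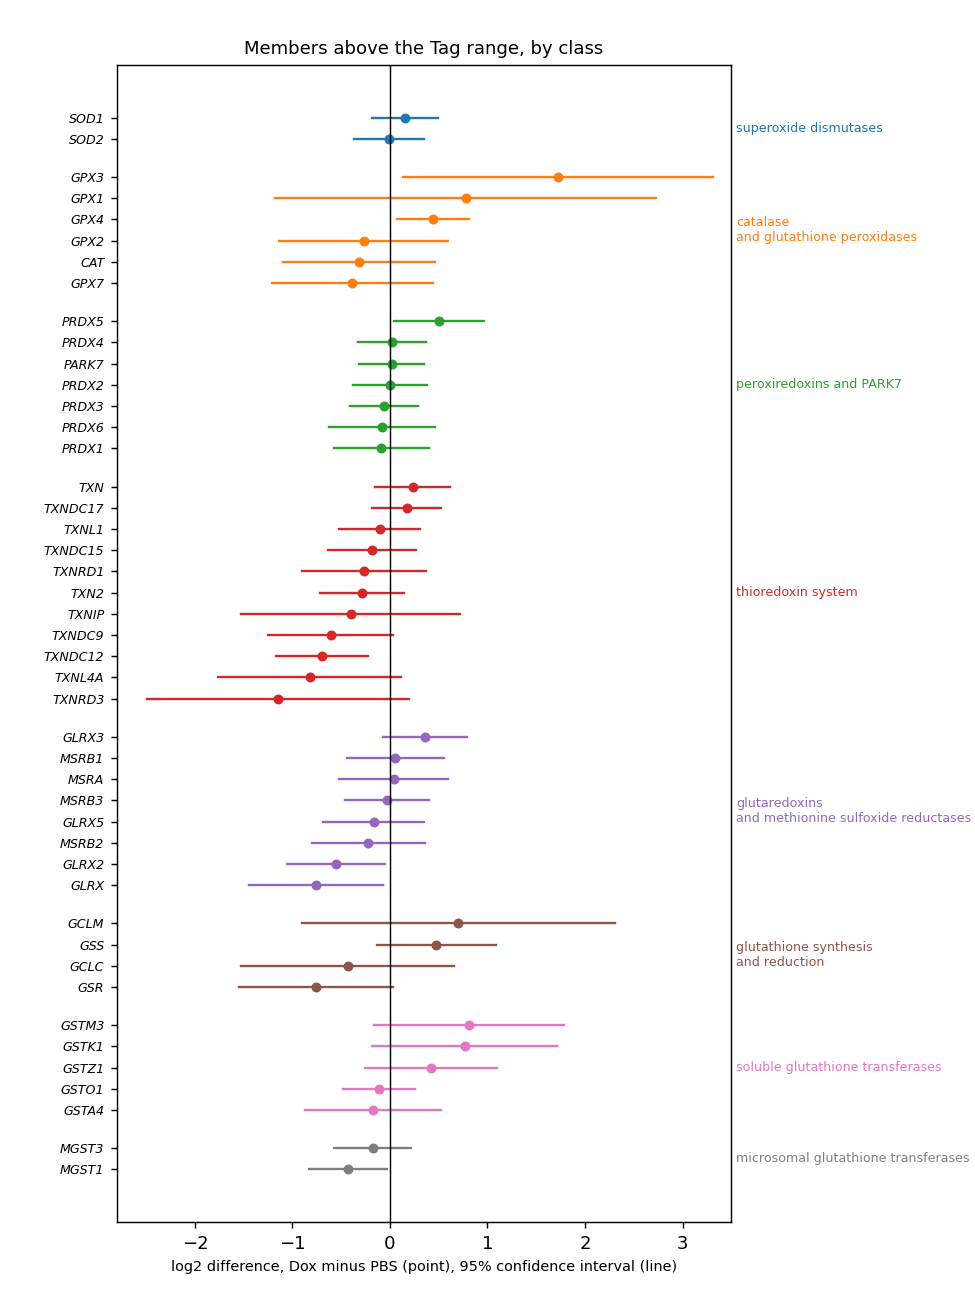
The log2 difference of Dox minus PBS (horizontal axis, points) with its 95% confidence interval from limma (lines) is drawn for 45 members, coloured by class. The intervals of GPX3, GPX4 and PRDX5 lie above 0, those of TXNDC12, GLRX2, GLRX and MGST1 lie below 0, and the other 38 include 0.

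The superoxide dismutases of the cytosol and of the mitochondria did not separate the groups. SOD1, the copper and zinc enzyme of the cytosol, had signals of 2524, 2124.7 and 2202.1 in Dox hearts and 1919.4, 2206.6 and 2030.5 in PBS hearts. PBS 2 lay above Dox 2 and Dox 3, and the limma difference was 0.15 with a 95% interval of -0.19 to 0.49 on the log2 scale. SOD2, the manganese enzyme of the mitochondrial matrix, had signals of 2546.8, 2056.9 and 2197.3 in Dox hearts and 2356.5, 2447.7 and 2050.9 in PBS hearts. Its difference was -0.01 (interval -0.37 to 0.34), which spans 0.773-fold to 1.27-fold. SOD3, the secreted enzyme, did not exceed background on 5 of 6 arrays and has no fold. The direction of SOD1 turned after quantile normalization (-0.008) and cyclic loess (-0.005).

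Glutathione peroxidases held the member with the widest difference upward. GPX3, the secreted peroxidase found in plasma, had signals of 29.5, 145.4 and 235.3 in Dox hearts and 23.5, 25.2 and 47.4 in PBS hearts. Dox 2 and Dox 3 were several-fold above every PBS heart, and Dox 1 lay between PBS 2 and PBS 3. The geometric means differed 3.30-fold, a log2 difference of 1.72 with a standard error (SE) of 0.70 (limma adjusted p = 0.521), and the exact permutation p was 0.2. Without Dox 1 the difference was 2.61, and without Dox 3 it was 1.11. The unadjusted p stayed at 0.05 or less without Dox 1 or PBS 3 and exceeded it without any of the other 4 arrays.

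GPX4, the peroxidase that reduces phospholipid hydroperoxides within membranes, was higher in each Dox heart. It had signals of 3618, 3528.4 and 4483.8 in Dox hearts and 2490.2, 3018.4 and 3046.2 in PBS hearts. The groups did not overlap, the fold was 1.36, and the log2 difference was 0.44 with an SE of 0.16 (limma adjusted p = 0.521). The second GPX4 probe set was close to background, with signals of 3.9 to 11.1 over all arrays and overlapping groups. Quantile normalization lowered the difference to 0.21, where the unadjusted p exceeded 0.05, and cyclic loess lowered it to 0.24.

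GPX1, the main peroxidase of the cytosol, varied more within each group than between them. Its signals were 311.4, 2003.9 and 2340 in Dox hearts and 815.6, 1535.7 and 232.9 in PBS hearts. The within-group standard deviation (SD) was 1.51 log2 units, the widest of all members, and the difference of 0.77 had an interval of -1.18 to 2.73. Without Dox 1 the difference was 1.71, and without PBS 3 it was 0.02.

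Catalase (CAT), the peroxide-splitting enzyme of the peroxisome, had signals of 839.3, 784 and 357.7 in Dox hearts and 584.2, 946.5 and 828.3 in PBS hearts. Dox 3 was the lowest of the 6, the log2 difference was -0.32 (interval -1.10 to 0.46), and without Dox 3 it was 0.07. GPX7, a peroxidase of the endoplasmic reticulum, had signals of 60.2, 59 and 103.8 in Dox hearts and 145.2, 64.5 and 87.7 in PBS hearts, a difference of -0.39 that was -0.07 without PBS 1. A second GPX7 probe set gave -0.99 (limma adjusted p = 0.521), the same direction and a larger size. The third had 5 of 6 arrays in the Tag range and has no fold. GPX2, the gut peroxidase, was dim and overlapped between groups at a difference of -0.27, and GPX5 and GPX6 were within the Tag range.

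Peroxiredoxins differed little between the groups, apart from PRDX5. PRDX1, PRDX2, PRDX3, PRDX4, PRDX6 and PARK7, a redox-sensitive protein read with them, all lay within 1.2-fold, with log2 differences between -0.09 and 0.02. PRDX3, the peroxiredoxin of the mitochondrial matrix, had signals of 2595.6, 2064.4 and 2303.9 in Dox hearts and 2250.3, 2419.8 and 2573.5 in PBS hearts. The overlap was complete, and the interval of the difference ran from -0.41 to 0.29. PRDX4, the peroxiredoxin of the endoplasmic reticulum, had the smallest within-group SD of all members at 0.07 log2 units, with 699.3 to 771.9 in Dox hearts and 686.4 to 733.1 in PBS hearts, and a difference of 0.02 (interval -0.33 to 0.37). For PRDX2 the interval was -0.38 to 0.37 and for PARK7 -0.32 to 0.35. PRDX6, which uses glutathione and has a single catalytic cysteine, ran from 852.7 to 1677 in Dox hearts and from 1243 to 1284 in PBS hearts, so that its Dox arrays spread on both sides of the controls.

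PRDX5, which is targeted to mitochondria and peroxisomes as well as the cytosol, was higher in each Dox heart. It had signals of 403.4, 557.9 and 435.4 in Dox hearts and 279.1, 354.9 and 349 in PBS hearts. All 3 Dox hearts were above all PBS hearts, with Dox 2 the highest, and the fold was 1.42. The log2 difference was 0.50 with an SE of 0.20 (limma adjusted p = 0.521). It kept an unadjusted p of at most 0.05 after leaving out Dox 1 or Dox 3, and lost it without PBS 1, PBS 2, PBS 3 or Dox 2.

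Of the 11 members of the thioredoxin system, 9 were below 0 and 2 above, with a median log2 difference of -0.285, where 13699 of all 23999 probe sets were below 0. The groups did not overlap for 5 of them (45.5%), against 16.3% of all probe sets and 19.4% of all named genes. TXN, the thioredoxin of the cytosol, had signals of 1254.9, 1264.3 and 1616.9 in Dox hearts and 1239.2, 1199.4 and 1063 in PBS hearts. The groups were parted by a narrow gap, with Dox 3 well above the rest, and the difference of 0.23 (SE 0.17, limma adjusted p = 0.646) was close to that of its second probe set, 0.24, whose groups overlapped. TXN2, the thioredoxin of mitochondria, ran the other way, with 182.2, 162.4 and 148.7 in Dox hearts and 207.1, 198.2 and 194 in PBS hearts. Every Dox heart was below every PBS heart, and the difference was -0.29 (SE 0.19, limma adjusted p = 0.622). The spread of TXN2 within groups was small (SD 0.11 log2 units), and limma's SE is wider since it draws each variance toward that of probe sets of like brightness.

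TXNDC12, a thioredoxin-like protein of the endoplasmic reticulum, had the smallest unadjusted p of all members. Its signals were 113.6, 96.7 and 97.3 in Dox hearts and 187.9, 152.9 and 158.5 in PBS hearts. The highest Dox heart was well below the lowest PBS heart, and the level was 1.62-fold lower in Dox hearts, a log2 difference of -0.70 with an SE of 0.21 (limma adjusted p = 0.521). It was the only member with an unadjusted p of at most 0.05 whichever array was left out. TXNDC9, which binds the cytosolic chaperonin, had signals of 241, 236.7 and 131.9 in Dox hearts and 370.6, 255.7 and 282.3 in PBS hearts. Its groups did not overlap, the difference was -0.61 (SE 0.28, limma adjusted p = 0.533), and without Dox 3 it was -0.32. TXNDC17, a thioredoxin-related protein of the cytosol, had 975.1, 1107.7 and 990.9 in Dox hearts and 857.9, 902 and 969.7 in PBS hearts, a difference of 0.17 (SE 0.15) across a narrow gap.

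TXNIP, which binds and inhibits thioredoxin and follows glucose supply, had signals of 6624.4, 2601.2 and 1914.4 in Dox hearts and 2316.4, 5799.4 and 5698 in PBS hearts. Each group held high and low arrays, with Dox 1 the highest and Dox 3 the lowest of all 6. The difference of -0.40 had an interval of -1.53 to 0.72, and it was -0.93 without Dox 1 and -0.03 without Dox 3. TXNRD1, the thioredoxin reductase of the cytosol, had 239.7, 230.9 and 305.4 in Dox hearts and 443.8, 216.9 and 305.8 in PBS hearts. PBS 1 alone stood above the rest, and without it the difference was -0.01 in place of -0.27. The 2 other TXNRD1 probe sets gave -0.41 and 0.01.

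TXNRD3, a reductase best known from testis, was dim, with 9.9, 4.1 and 2.2 in Dox hearts and 9.9, 10.1 and 9.8 in PBS hearts. Dox 1 equalled the controls and Dox 3 was within the Tag range, and the difference of -1.15 shrank to -0.29 once an offset of 16 was added before log2. TXNL4A, a thioredoxin-fold protein of the spliceosome rather than a reductant, had 372.6, 231.1 and 101.7 in Dox hearts and 364.9, 348.8 and 380.7 in PBS hearts. Dox 1 lay among the controls and the other 2 Dox hearts below them, with a difference of -0.82 (limma adjusted p = 0.548), -1.25 without Dox 1 and -0.31 without Dox 3. TXNL1, which associates with the proteasome, and TXNDC15 overlapped between groups at -0.10 and -0.19, though a second TXNL1 probe set was lower in every Dox heart (-0.20).

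**Figure D2:**
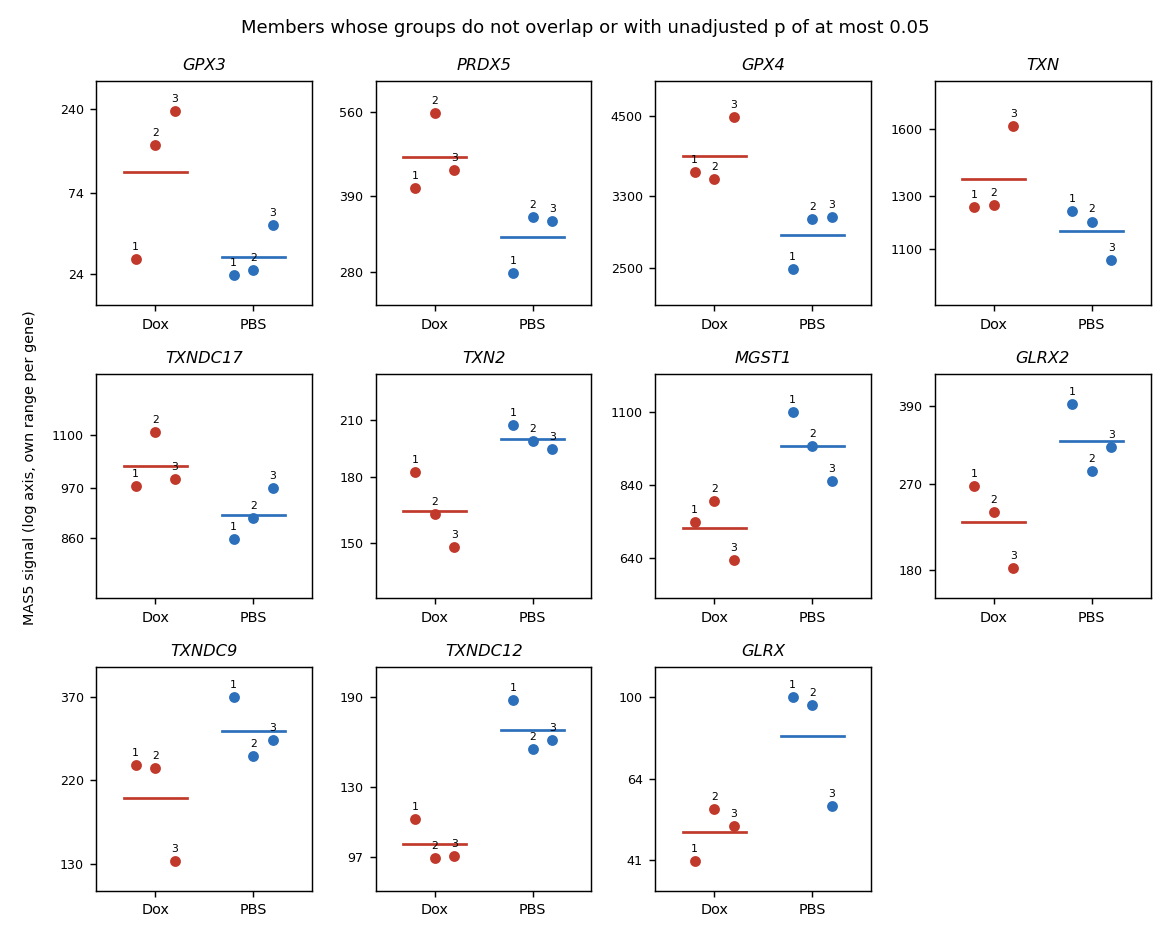
MAS5 signals (vertical axes, log scale with its own range for each gene) are plotted for the 3 Dox hearts (left in each panel) and the 3 PBS hearts (right), numbered by replicate, with a line at each geometric mean. All panels but GPX3 have groups that do not overlap, and in GPX3 Dox 1, at 29.5, lies below PBS 3, at 47.4.

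Glutaredoxins, which reduce mixed disulfides of proteins with glutathione, did not move one way, with GLRX and GLRX2 lower in every Dox heart and GLRX3 above 0. GLRX, the glutaredoxin of the cytosol, had signals of 40.8, 54.2 and 49.3 in Dox hearts and 100, 95.4 and 55.2 in PBS hearts. The groups were parted only by the step between Dox 2 and PBS 3. The level was 1.69-fold lower in Dox hearts, a log2 difference of -0.76 with an SE of 0.30 (limma adjusted p = 0.521). A second GLRX probe set of nearly equal mean signal had 52.1, 27.5 and 77.4 in Dox hearts and 106.5, 67.2 and 72.3 in PBS hearts, a difference of -0.74 with overlapping groups.

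GLRX2, the glutaredoxin of mitochondria, had signals of 267.3, 237 and 181.7 in Dox hearts and 394.4, 287.3 and 320.9 in PBS hearts. Every Dox heart was lower, by 1.47-fold in the geometric mean, and the log2 difference was -0.55 with an SE of 0.22 (limma adjusted p = 0.521). GLRX3 and GLRX5 are glutaredoxins that carry iron and sulfur clusters. GLRX3 had 951.1, 1105.7 and 1288.1 in Dox hearts and 719.7, 925.6 and 962.8 in PBS hearts, with only Dox 1 inside the range of the controls (difference 0.36, limma adjusted p = 0.565). GLRX5 overlapped between groups at -0.17.

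Methionine sulfoxide reductases, which repair oxidized methionine, lay close to 0. MSRB3 had signals of 1346.5, 984.4 and 1477.5 in Dox hearts and 1263.1, 1236.2 and 1334.1 in PBS hearts. The PBS arrays lay inside the span of the Dox arrays, and the difference was -0.03 (interval -0.46 to 0.40). MSRA, MSRB1 and MSRB2 had differences of 0.04, 0.05 and -0.22, all with overlapping groups, and the second MSRA probe set gave 0.48.

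Glutathione is made in 2 steps, by glutamate-cysteine ligase, with its catalytic subunit GCLC and its modifier subunit GCLM, and then by glutathione synthetase (GSS), and its oxidized form is reduced by glutathione reductase (GSR). The 4 genes did not move one way, with GCLM and GSS above 0 and GCLC and GSR below 0, and none separated the groups. GCLM had signals of 10.8, 57.5 and 81.1 in Dox hearts and 23.1, 32.3 and 15.7 in PBS hearts. Dox 2 and Dox 3 were above all PBS hearts while Dox 1 was the lowest of the 6, and the difference of 0.70 (SE 0.70, limma adjusted p = 0.738) became 1.59 without Dox 1 and 0.13 without Dox 3. Its second probe set gave -0.61, with 3 of 6 arrays in the Tag range, and the mean of both was 0.04.

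GSS had signals of 54.9, 89 and 83.8 in Dox hearts and 52, 52.9 and 55.3 in PBS hearts. Dox 1 lay between PBS 2 and PBS 3 and the other Dox hearts were above all controls, for a difference of 0.48 (SE 0.27, limma adjusted p = 0.577). GSR had 116.9, 91 and 47.9 in Dox hearts and 158.4, 143.5 and 108.6 in PBS hearts. Only Dox 1 overlapped the controls, at PBS 3, and the difference was -0.76 (SE 0.35, limma adjusted p = 0.531), or -1.03 without Dox 1 and -0.39 without Dox 3. GCLC was near the Tag range at 6, 12.1 and 7 in Dox hearts and 15.2, 7 and 11.8 in PBS hearts, a difference of -0.43. A second of its 5 probe sets gave -0.90, with 3 of 6 arrays in the Tag range. The rest were within the Tag range and have no fold.

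Soluble glutathione transferases, which join glutathione to electrophiles, had 4 of 6 members above 0, a median log2 difference of 0.537 (the dim GSTA1 counted) and no member whose groups were apart. GSTM3, of the mu class, had signals of 24.8, 55.2 and 77.4 in Dox hearts and 30.1, 28.8 and 22.5 in PBS hearts, with Dox 1 among the controls and a difference of 0.81 (SE 0.43, limma adjusted p = 0.562). GSTK1, the kappa-class enzyme of mitochondria and peroxisomes, had 294.4, 636.7 and 726.8 in Dox hearts and 177.6, 393 and 397.2 in PBS hearts. Again Dox 1 alone lay among the controls, and the difference was 0.77 (SE 0.42, limma adjusted p = 0.570). The GSTM3 difference was 1.28 without Dox 1 and 0.46 without Dox 3, and that of GSTK1 was 1.17 without Dox 1 and 0.38 without PBS 1.

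GSTZ1, which acts in tyrosine breakdown, had 308.8, 326.7 and 340 in Dox hearts and 148.5, 302.7 and 316.2 in PBS hearts. PBS 1 was far below the other 5 arrays, which spanned a narrow range, and its second probe set gave 0.08 in place of 0.42. GSTO1, of the omega class, had 607.5, 602.2 and 527 in Dox hearts and 615.1, 664.7 and 596.1 in PBS hearts, a difference of -0.11 (interval -0.48 to 0.26) with a within-group SD of 0.10. GSTA4, which takes up products of lipid peroxidation, overlapped between groups at -0.18, and GSTA1 was within the Tag range.

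Both microsomal transferases were below 0. MGST1, an enzyme of the endoplasmic reticulum and outer mitochondrial membrane, had signals of 732.6, 791.6 and 635 in Dox hearts and 1101.1, 969.4 and 850.9 in PBS hearts. Every Dox heart was below every PBS heart, by 1.35-fold in the geometric mean, and the log2 difference was -0.43 with an SE of 0.18 (limma adjusted p = 0.521). MGST3 had 2397.7, 1697.4 and 1999.4 in Dox hearts and 2110.4, 2221 and 2518.2 in PBS hearts, with Dox 1 inside the range of the controls and a difference of -0.18. The MGST3 difference was -0.36 after quantile normalization.

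The median within-group SD was 0.28 log2 units over the 45 members above the Tag range, against 0.41 over all 17069 probe sets above it. The sets were not matched for brightness, and its part in this gap was not tested. The widest spreads after GPX1 were those of GPX3 (1.18) and GCLM (1.16), and the narrowest after PRDX4 was that of PARK7 (0.09). Dox 3 had the highest signal of the 6 arrays for 16 members and the lowest for 13, whereas Dox 1 had the highest for 8 and the lowest for 6. PBS 1 had the highest for 14 and the lowest for 11. In the map of signals by array, the superoxide dismutases, the microsomal transferases and most peroxiredoxins are pale on every array.

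**Figure D3:**
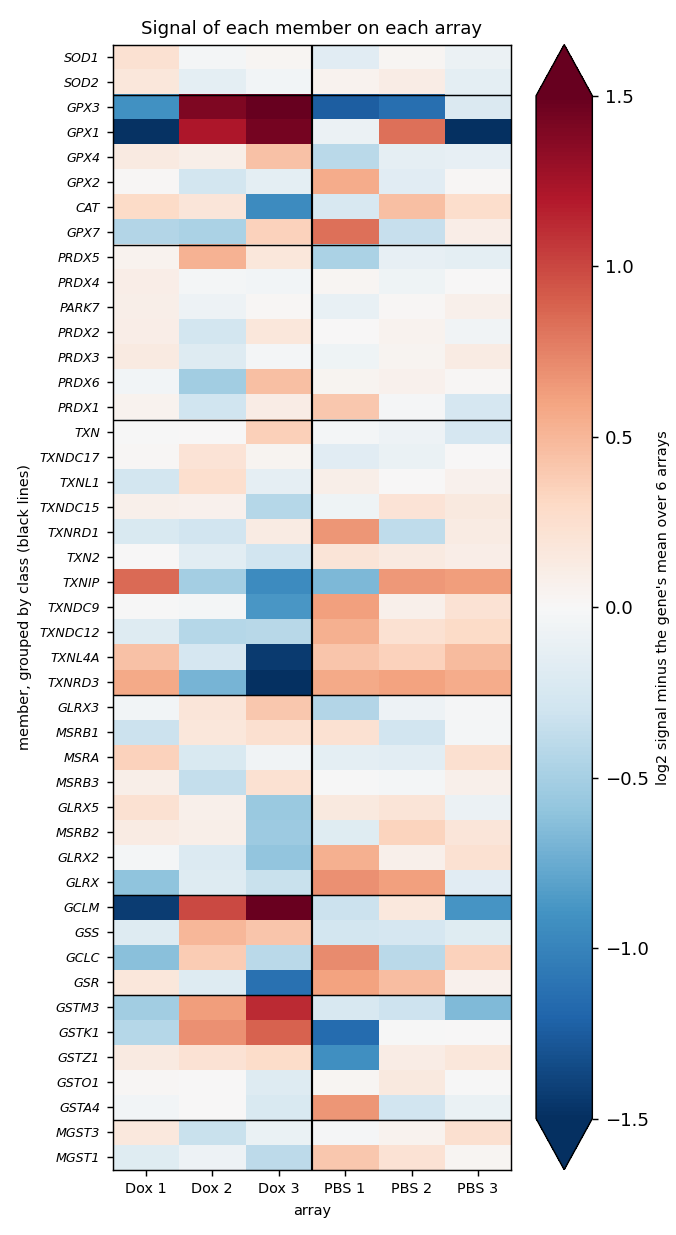
Each row is 1 of 45 members above the Tag range, in classes parted by black lines, and each column is an array, Dox left of PBS, coloured by the log2 signal minus the gene's mean over the 6 arrays. Dark cells stand out in the rows of GPX1, GPX3, GCLM and TXNRD3, and the rows of PRDX4 and PARK7 are nearly white.

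In some members Dox 1 stood apart from the other Dox hearts. Dox 2 and Dox 3 lay above all 3 PBS hearts while Dox 1 did not in 8 of 49 members (16.3%), namely GCLM, GLRX3, GPX1, GPX3, GSS, GSTK1, GSTM3 and GSTZ1, and in 7.48% of all probe sets. These 8 come from 4 classes and were read together after their values were seen, so their number is given as a description. The mirror arrangement, with Dox 2 and Dox 3 below all PBS hearts while Dox 1 was not, was found in 4 members (8.16%), GSR, MGST3, TXNL4A and TXNRD3, and in 10.7% of all probe sets. Dox 1 was above all PBS hearts for 30.6% of the members and below all of them for 26.5%, against 23.6% and 27.9% of all probe sets. Dox 2 was above them for 26.5% and below for 36.7%, against 24.9% and 33.3%, and Dox 3 was above them for 38.8% and below for 34.7%, against 30.4% and 38.3%. These shares lay near those of all probe sets. Without Dox 1, 8 members (16.3%) were higher at an unadjusted limma p of at most 0.05, against 5.53% of all probe sets. On the lower side were 6 members (12.2%), against 10.7%. GCLM, GPX1, GSS, GSTK1 and GSTM3 joined GPX3, GPX4 and PRDX5 on the higher side. Each that joined was named above for Dox 1 lying apart. Dox 1 is its lowest Dox array, so leaving Dox 1 out raises its difference by construction. No member passed the study's threshold without Dox 1 (smallest limma adjusted p = 0.0889), where 14 of all 23999 probe sets did. Without Dox 3, 1 of 49 members was higher, against 2.48% of all probe sets, and 2 of 49 were lower, against 5.25%. Dox 1 is the array with the lowest GAPDH and actin ratios and Dox 3 the one with the 5S RNA signal and the lowest correlation, and the part of these in either arrangement was not tested.

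**Figure D4:**
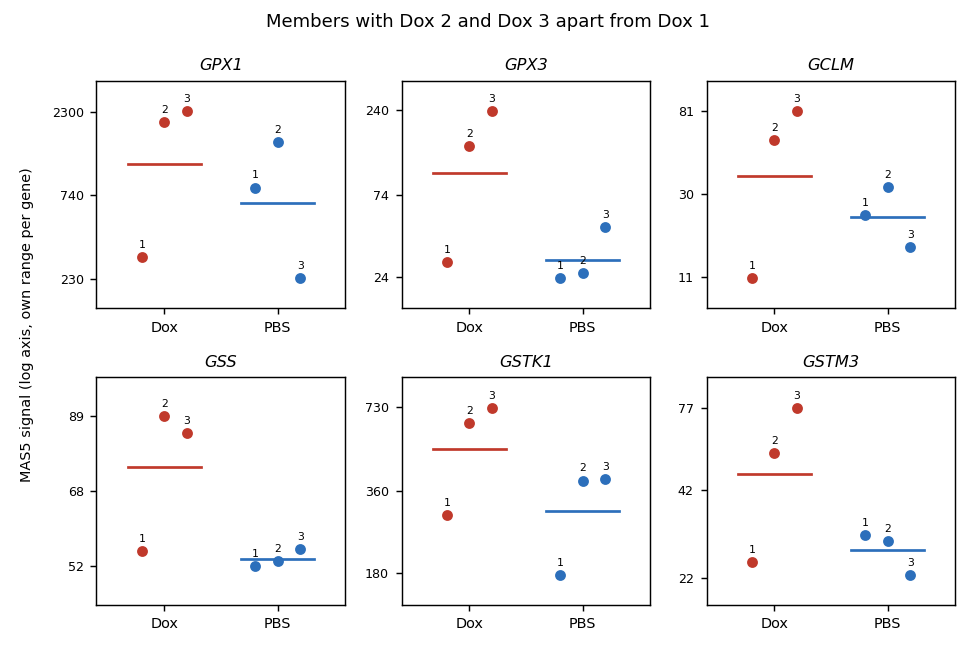
MAS5 signals (vertical axes, log scale with its own range for each gene) of 6 members are plotted for the 3 Dox hearts (left in each panel) and the 3 PBS hearts (right), numbered by replicate, with a line at each geometric mean. In each panel Dox 2 and Dox 3 are above all PBS hearts, and Dox 1 lies within the range of the controls or, for GCLM, below it.

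Other genes of redox metabolism (NADPH supply, iron and heme handling, glyoxalases, selenoproteins, oxidases and regulators) were read as a list of 72 genes, of which 46 had a probe set. Of these 46, 30 were above 0 and 16 below, with a median log2 difference of 0.221, and 0 passed the study's threshold by limma. The counts by direction include 5 genes within the Tag range, which have no fold, beside 41 above it. Of those within it, CBR1, FOXO3 and UCP3 were above 0, and GGT7 and PON3 below. Of all 6765 named genes at 1 probe set each, 2979 were above 0 and 3786 below, with a median of -0.068. At an unadjusted limma p of at most 0.05, 4 genes (8.70%) were higher in Dox hearts and 3 (6.52%) lower. These shares were 3.62% and 5.92% of all probe sets, and 4.92% and 6.61% of all named genes. The groups did not overlap for 13 of the 46 (28.3%), against 16.3% of all probe sets and 19.4% of all named genes. Of these, 9 (19.6%) were higher in Dox hearts, against 9.06% of all named genes, and 4 (8.7%) lower, against 10.4%. They include ESD, FTH1, IDH2, MAOA and NOS3 (higher) and CYBA (lower), each at an unadjusted limma p above 0.05. HMOX2, the constitutive heme oxygenase, had signals of 382.9, 530.1 and 373.7 in Dox hearts and 178.4, 257.1 and 218.3 in PBS hearts. Every Dox heart was above every PBS heart, with a log2 difference of 0.97 and an SE of 0.23 (limma adjusted p = 0.521).

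SQSTM1, an autophagy adaptor that binds KEAP1, had 1557.7, 1806.3 and 2648.2 in Dox hearts and 902.7, 1183.9 and 1282.7 in PBS hearts, a difference of 0.81. The light chain of the iron store ferritin, FTL, had 4050, 5164.5 and 6900.1 in Dox hearts and 2478.2, 3565.2 and 3962.6 in PBS hearts, a difference of 0.68. In both genes the groups did not overlap and Dox 3 was the highest array. HAGH, a glyoxalase that releases glutathione, had 883.4, 1136.8 and 1182.1 in Dox hearts and 641.3, 851.7 and 847.2 in PBS hearts, a difference of 0.45, and again no overlap.

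On the lower side, SELENOW, a small selenoprotein of muscle, had 441.7, 330.7 and 285 in Dox hearts and 789.8, 539.6 and 534.7 in PBS hearts, a difference of -0.82. NNT, the mitochondrial transhydrogenase that supplies NADPH to glutathione reductase and the thioredoxin system, had 330.7, 318.7 and 339.5 in Dox hearts and 443.6, 474 and 402.3 in PBS hearts, a difference of -0.41. MAOB, an amine oxidase that releases hydrogen peroxide, had 17.8, 45 and 39.1 in Dox hearts and 71.7, 60 and 103 in PBS hearts, a difference of -1.27. All 3 had groups that did not overlap, and each of these 7 genes had a limma adjusted p of 0.521. NQO1 and HMOX1, classic targets of NRF2 (the product of NFE2L2) and named here after their values were seen, had overlapping groups: NQO1 differed by -0.05, and the 0.62 of HMOX1 came with 149.7 on Dox 3, where every other array was between 36.6 and 49.6.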

How the data were processed

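The values were taken from the series' table of MAS5 signal intensity, which the authors computed with GCOS (version 1.4 in the submitters' processing notes) and scaled per array, with no other normalization. The table holds 24123 probe sets, and 124 array controls were left out. Names came from the platform annotation: 10069 probe sets had 1 symbol, 198 had several and 13732 had none. A probe set with TXNL4B as a repeated symbol was left out. Signals of 0 were raised to 0.1 and log2 was taken. In R 4.3.3, limma 3.58.1 (lmFit, eBayes with an intensity trend) fitted Dox minus PBS over 6 arrays, adjusted by Benjamini-Hochberg over 23999 probe sets, with 4.497 prior degrees of freedom. The fit was tested on simulated data. Single genes also got an exact two-sided permutation test. The Tag range of an array ends at its highest signal among 17 Tag probe sets (2.5 to 6.3), and a gene within it on 4 or more arrays has no fold. The number of arrays limits the precision. Members and gene lists were chosen with earlier results of these data known. Every array's signals are given for members with non-overlapping groups or an unadjusted p of at most 0.05, and for the brightest and the most different of each class. They are also given for members at an unadjusted limma p of at most 0.05 without Dox 1. CAT, GLRX3, GPX7 and TXNRD1 were added after their values were seen, and GCLC and GSTZ1 are given outside these rules. Alternatives run were normalization by quantiles or by cyclic loess, an added 16 ahead of log2, dim probe sets left out, no trend, array weights, a replicate block, the methods' t-test, averaging a gene's probe sets, and leaving out each array. Same-numbered Dox and PBS arrays had correlations of -0.05, 0.06 and -0.11 between their deviations, so the numbers were not treated as pairs. Python 3.11.15 with matplotlib 3.10.9 drew the figures.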

Additional observations from a re-analysis of the deposited data

How the results depend on the processing

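No member passed the study's threshold under any alternative run, the methods' t-test included. Of all 23999 probe sets, 14 passed it without Dox 1, and none did under the other alternatives. At an unadjusted p no higher than 0.05, where 3 members were higher and 4 lower, the counts were 2 higher after quantile normalization, with a gene's probe sets averaged and by the methods' t-test, 0 higher and 1 lower without the intensity trend, and 5 higher with array weights. Leaving out 1 array gave 0 to 8 higher and 1 to 6 lower members, the highest counts without Dox 1 and the lowest without PBS 1. The shares of all probe sets also moved, from 3.62% higher and 5.92% lower to 5.53% and 10.7% without Dox 1. They were 2.01% and 2.5% without PBS 1, 2.68% and 4.72% without the trend, and 5.66% and 10.4% with array weights. With probe sets averaged they were 3.52% and 5.97%, by the t-test 2.83% and 4.34%, and with the replicate block 3.61% and 6.03%. The median difference of -0.083 became -0.175 after quantile normalization and -0.131 after cyclic loess, which moved the median of all probe sets to -0.004 and -0.001 from -0.100, and ran from -0.124 to 0.020 over the arrays left out. The replicate number as a block gave 4 higher, 5 lower and a median of -0.083, and changed no call at the study's threshold. Of 450 values for 30 members, 10 turned direction: SOD1 after quantile normalization (-0.008) and cyclic loess (-0.005), SOD2 without PBS 1 (0.011), PBS 2 (0.039), Dox 2 (0.054) and Dox 3 (0.006; range -0.100 to 0.054), MSRB3 without PBS 3 (0.002) and Dox 2 (0.143; range -0.150 to 0.143), PRDX3 without Dox 2 (0.020; range -0.145 to 0.020), and CAT without Dox 3 (0.074; range -0.542 to 0.074). The causes were not tested.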
